A study of Mus musculus with 4 samples.

Results

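The mRNAs of 40 synaptic and immunoglobulin-type adhesion genes were compared between the RNA that came down with TSSK2 and the RNA that came down with control IgG. The genes were chosen by name, as adhesion genes outside the cadherin family: 3 neuroligins, 2 neurexins, 2 contactin-associated proteins, 4 LRRTM genes, 6 SLITRK genes, 5 LRFN genes, 3 netrin-G ligands, 3 FLRT genes, 3 LAR-type phosphatases, Il1rapl1, Igsf9 and Igsf9b, 4 CADM genes, and Dscam and Dscaml1. The choice was made with earlier results of these data known. Each of the 40 symbols was found once among the 21936 genes of the count table. TSSK2, a testis-specific serine kinase, marked the late chromatoid body (late-CB) of elongating spermatids in this study. There were 2 TSSK2-IP libraries, made with an anti-TSSK2 antibody, and 2 control IgG-IP libraries, made with mouse IgG. Both groups started from germ cells of adult C57BL/6 mouse testes with no mutant allele or drug named in the sources used here, which were cross-linked, lysed and sonicated before the insoluble fraction was immunoprecipitated. Nothing in these sources says that replicates came from separate animals, so p-values describe the spread between these libraries, which may be technical.

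Neuroligins and neurexins bind each other across the synaptic cleft, from the postsynaptic and the presynaptic side. LRRTM proteins are further postsynaptic ligands of neurexins, whereas SLITRK, IL1RAPL1, NGL-3 and some SALM proteins bind the presynaptic LAR-type receptor tyrosine phosphatases. The immunoglobulin-type members, such as the CADM (SynCAM) proteins, adhere to themselves or to each other, and CADM1 is also known in the testis, where it joins spermatogenic cells to Sertoli cells and is required for male fertility.

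The libraries held 4158034 and 4491749 counts in TSSK2-IP and 9858941 and 3938922 counts in control IgG-IP. Levels are given as normalised CPM, the count divided by a library size adjusted with the trimmed mean of M values, on which scale 1 count was worth between 0.156 and 0.230 CPM and 3 counts, the limit that a count of 0 allows, between 0.468 and 0.689 CPM. These limits cover counting error only. The control libraries were farther apart than the TSSK2-IP libraries, with an SD of the log2 difference between replicates of 1.08 against 0.47 over the 14722 genes tested. Elongating spermatid markers summed to 4177 and 3815 CPM in TSSK2-IP and to 10319 and 5004 CPM in control IgG-IP, so the labelled germ cells were seen in all 4 libraries. The sums differed through Akap4 (1164 and 1146 CPM against 5879 and 1823 CPM) and Prm2 (1363 and 1103 CPM against 2788 and 1689 CPM). For Prm1, Tnp1, Tnp2 and Odf1 the log2 fold changes of TSSK2-IP over control IgG-IP were between -0.09 and 0.22. Sertoli cell markers summed to between 20.4 and 53.5 CPM, and the 7 neuronal markers to between 140 and 249 CPM, most of it from Map2 (119 to 235 CPM). None of the 54 markers was at 0 in every library.

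None of the 40 adhesion genes passed both thresholds for a difference, which were a log2 fold change of 1 or more in size and an adjusted p (Benjamini-Hochberg, over every gene tested) of 0.05 or less in edgeR. At these thresholds 102 genes (0.693% of all tested) were higher in TSSK2-IP and 0 (0%) were lower. DESeq2, the tool the study used, as run here on the 4 libraries also called 0 of the adhesion genes. It called 139 genes (0.654% of all its genes) higher and 0% lower. The study's own DESeq2 fit gave more genes higher, and its calls for the adhesion genes are not given here. At an unadjusted p under 0.05, 4 of the 26 adhesion genes tested were higher (15.4%) and 1 was lower (3.85%), compared with 8.34% and 4.89% of all genes tested. The 4 were Igsf9b, Lrrtm3, Flrt1 and Nrxn3, and the 1 was Cntnap1. DESeq2, fitted on all 40, also gave 4 and 1 at an unadjusted p under 0.05, where 4.02% of all its genes were higher and 5.65% lower. Because earlier results of these data were known when the genes were chosen, these shares are a description only. The log2 fold changes of the 26 ran from -1.89 to 2.33 with a median of -0.04, and the median over all genes tested was -0.02.

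**Figure D1:**
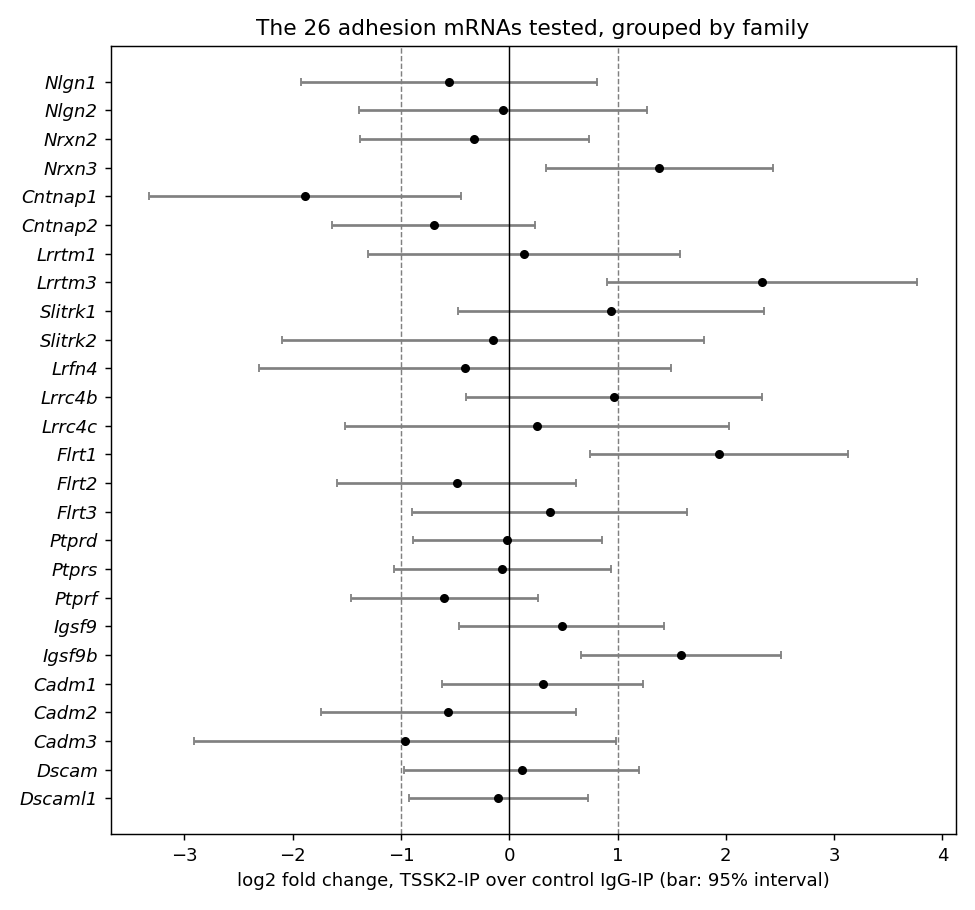
Fitted log2 fold change of TSSK2-IP over control IgG-IP (x axis) for each of the 26 adhesion genes tested (y axis, grouped by family), with points for the estimate, bars for its 95% interval and dashed lines at -1 and 1. Igsf9b, Lrrtm3, Flrt1 and Nrxn3 lie to the right of 0 and Cntnap1 to the left with intervals that leave out 0, and the lowest adjusted p is 0.147.

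Counts were low for many of the genes. Of the 40, 26 had enough reads to be tested and 14 did not, and 38 had at least 1 count in each of the 4 libraries. The 14 that were not tested had between 0 and 25 counts in any library. Their mean CPM was lower in TSSK2-IP for 13, and higher for Il1rapl1. Both TSSK2-IP libraries were below both control libraries for 4 of them, and above both for Il1rapl1. The filter acted on CPM before the TMM adjustment, whose factors were 1.17 and 1.18 in TSSK2-IP and 0.652 and 1.12 in control IgG-IP. In normalised CPM its limit therefore stood higher for control replicate 1 than for the TSSK2-IP libraries. The same shares over all genes not tested are not given, so these counts only describe the 14. The median log2 fold change of -0.04 leaves the 14 out. DESeq2, fitted on all 40, gave a median of -0.35, but its scaling also differs from that of edgeR. With the size factors of DESeq2 in edgeR the median of the 26 was -0.15, and edgeR without a filter gave -0.28. A median over all genes is not given for these fits. Of the 26 tested, 7 passed the filter because both TSSK2-IP libraries and 1 control library were over its limit (Lrrc4b, Lrrtm3, Flrt1, Slitrk1, Lrfn4, Lrrc4c and Slitrk2). Cntnap1 passed through both control libraries and 1 TSSK2-IP library, and Cadm3 through 1 library of each group. Counts over the genes tested are therefore given as a description. Both TSSK2-IP libraries were above both control libraries for 8 of the 26 (30.8%, against 27.3% of all genes tested) and below both for 6 (23.1%, against 21.6%), so the shares without overlap were near those of all genes.

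**Figure D2:**
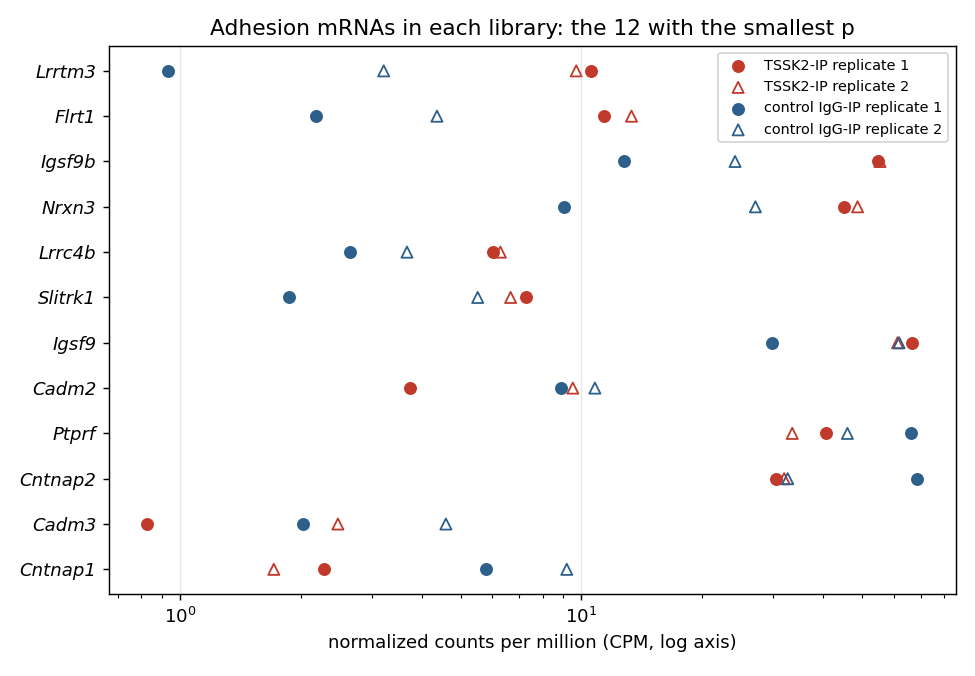
Normalised CPM (log axis) of the 12 adhesion genes with the smallest p in each of the 4 libraries, with TSSK2-IP in red, control IgG-IP in blue, filled circles for replicate 1 and open triangles for replicate 2. Igsf9b, Lrrtm3, Flrt1 and Nrxn3 have both TSSK2-IP points above both control points and Cntnap1 has both below.

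Among the presynaptic neurexins, Nrxn3 was higher in TSSK2-IP and Nrxn2 overlapped between the groups. Nrxn3 (ENSMUSG00000066392, GRCm38 chr12:88722876-90334935, plus strand) had 217 and 256 counts in TSSK2-IP and 58 and 118 in control IgG-IP, or 45.0 and 48.7 CPM against 9.05 and 27.1 CPM. The lower TSSK2-IP library was 1.66-fold above the higher control library, although the control libraries were themselves farther apart than that. The fitted log2 fold change was 1.39 (SE 0.49, 95% interval 0.34 to 2.44), with an edgeR adjusted p of 0.272. Nrxn2 had 53 counts in each TSSK2-IP library and 51 and 81 in control IgG-IP, with CPM from 7.96 to 18.6, both in the control libraries, and a log2 fold change of -0.32 (SE 0.49).

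Cntnap1 and Cntnap2 encode contactin-associated proteins, neurexin relatives of axon-glia junctions, and neither was called. Cntnap1 (ENSMUSG00000017167, chr11:101170523-101190724, plus strand), a component of the junctions beside nodes of Ranvier, had 11 and 9 counts in TSSK2-IP and 37 and 40 in control IgG-IP, which gave 2.28 and 1.71 CPM against 5.77 and 9.19 CPM. The lower control library was 2.53-fold above the higher TSSK2-IP library. The log2 fold change was -1.89 (SE 0.67, 95% interval -3.33 to -0.45), the lowest of the 26, and the edgeR adjusted p was 0.273. Of the Cntnap1 exons, 233 bases (3.97%) overlap exons of Plekhh3 on the opposite strand. The part of this overlap in the Cntnap1 counts was not tested. Cntnap2, which clusters potassium channels along axons, had 147 and 168 counts in TSSK2-IP against 439 and 142, or 30.5 and 32.0 CPM against 68.5 and 32.6 CPM. Control replicate 2 lay beside the TSSK2-IP libraries and control replicate 1 above them. The log2 fold change of -0.70 (SE 0.44, edgeR adjusted p 0.484) was -0.01 without control replicate 1. In the most alike 60 bases of the coding sequences, shown because Cntnap1 had an unadjusted edgeR p under 0.05, 11 bases differ (capitals). Cntnap1 lies at chr11:101188528-101188587 and Cntnap2 at chr6:47271159-47271218, both on the plus strand of GRCm38.
Cntnap1: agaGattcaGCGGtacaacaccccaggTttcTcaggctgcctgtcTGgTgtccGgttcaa
Cntnap2: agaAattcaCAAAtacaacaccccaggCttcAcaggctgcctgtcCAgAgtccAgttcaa

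The neuroligins, the postsynaptic partners of neurexins, were low in all 4 libraries. Nlgn2, the neuroligin of inhibitory synapses, had 23 and 27 counts in TSSK2-IP and 24 and 29 in control IgG-IP, or 4.77 and 5.14 CPM against 3.74 and 6.66 CPM. The TSSK2-IP values lay between the control values, and the log2 fold change was -0.06 (SE 0.62, edgeR adjusted p 0.979, 95% interval -1.39 to 1.27), an interval that spans more than a 2-fold difference either way. Nlgn1, the neuroligin of excitatory synapses, had 16 and 21 counts against 31 and 26 and did not overlap between the groups in CPM, with a log2 fold change of -0.55 (SE 0.64). Nlgn3 had 3 to 14 counts a library and was not tested. Of the 100-base windows in its exons, 39.4% also occur in transcripts of Gm21986, which is not among the genes of the count table. How reads in the shared windows were counted is not given in the sources used here.

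Of the LRRTM genes, which encode postsynaptic neurexin ligands with leucine-rich repeats, Lrrtm3 had the largest log2 fold change of the 26 adhesion genes tested. Lrrtm3 (ENSMUSG00000042846, chr10:63928472-64090277, minus strand) had 51 counts in each TSSK2-IP library and 6 and 14 in the control libraries. These gave 10.6 and 9.70 CPM against 0.936 and 3.22 CPM, so the lower TSSK2-IP library was 3.02-fold above the higher control library. The control libraries were themselves farther apart than that, at 3.44-fold. The log2 fold change was 2.33 (SE 0.67, 95% interval 0.90 to 3.77), or 5.04-fold, with an edgeR adjusted p of 0.173. Lrrtm1 had 3.52 and 4.95 CPM against 3.59 and 4.14 CPM and overlapped between the groups (log2 fold change 0.14, SE 0.67). Lrrtm2 (3 to 13 counts) and Lrrtm4 (3 to 7 counts) were not tested, and 22.8% of the windows of Lrrtm4 are shared with Gm4409. Lrrtm3, with an unadjusted edgeR p under 0.05, was compared in sequence with Lrrtm1 and Lrrtm4, and Lrrtm4 held the most alike stretch. In the most alike 60 coding bases of Lrrtm3 and Lrrtm4, 10 differ (capitals). Lrrtm3 lies at chr10:64088022-64088081 on the minus strand and Lrrtm4 at chr6:80022927-80022986 on the plus strand.
Lrrtm3: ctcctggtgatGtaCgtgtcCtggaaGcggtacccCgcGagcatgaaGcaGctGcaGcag
Lrrtm4: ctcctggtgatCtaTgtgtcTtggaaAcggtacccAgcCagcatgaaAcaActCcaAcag

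Lrrtm3 lies inside, and on the opposite strand of, Ctnna3, an alpha-catenin gene. In the same way Lrrtm1 lies in Ctnna2, Lrrtm2 in Ctnna1, Lrfn1 in Samd4b, Lrfn4 in Pcx and Lrrc4 in Snd1. Ctnna3 had 1056 and 1051 counts in TSSK2-IP and 1274 and 470 in control IgG-IP, a log2 fold change of 0.45 (SE 0.53, edgeR adjusted p 0.722). The directional libraries mark the strand, but the strand setting of the counting is not given in the sources used here, so reads from one strand could have been counted for a gene on the other. No 100-base window of the Lrrtm3 exons occurs in a transcript of another gene. That search covered annotated transcripts only, so it cannot show whether RNA from Ctnna3 introns was counted for Lrrtm3.

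The ligands of the LAR-type phosphatases had few reads. Slitrk1, which controls neurite growth, had 35 counts in each TSSK2-IP library and 12 and 24 in the control libraries, or 7.26 and 6.66 CPM against 1.87 and 5.51 CPM. The groups did not overlap, but the log2 fold change of 0.94 (SE 0.66, edgeR adjusted p 0.524) was within the spread of the control libraries. Slitrk2 had between 1.09 and 4.14 CPM, with both extremes in the control libraries (log2 fold change -0.15, SE 0.91). Slitrk3, Slitrk4, Slitrk5 and Slitrk6 were not tested, with 0 to 25 counts in any library, and Slitrk3 was at 0 in TSSK2-IP replicate 2, which allows up to 0.571 CPM. Il1rapl1, a gene linked to intellectual disability, had 2, 2, 2 and 0 counts, the lowest level of the 40.

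Of the LRFN (SALM) genes, Lrfn4 was tested. It had 2.90 and 2.28 CPM in TSSK2-IP, between the 1.09 and 5.97 CPM of the control libraries (log2 fold change -0.41, SE 0.89). Lrfn1, Lrfn2, Lrfn3 and Lrfn5 had 1 to 15 counts a library and were not tested. Among the netrin-G ligands, Lrrc4b (NGL-3, a phosphatase ligand) had 29 and 33 counts in TSSK2-IP against 17 and 16, that is 6.01 and 6.28 CPM against 2.65 and 3.68 CPM. The groups did not overlap, with a log2 fold change of 0.96 (SE 0.64, edgeR adjusted p 0.505). Lrrc4c (NGL-1) had 2.07 and 4.57 CPM against 1.56 and 4.14 CPM (log2 fold change 0.25, SE 0.83). Lrrc4 (NGL-2) had 2 and 6 counts in TSSK2-IP and 18 and 15 in control IgG-IP. The lower control library was 2.46-fold above the higher TSSK2-IP library in CPM. Only 1 control library was over the limit of the filter, so Lrrc4 has no test.

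The LAR-type phosphatases, presynaptic receptors for several of these ligands, were among the better covered genes, and for each of the 3 the fitted log2 fold change was at or below 0. Ptprs had 587 and 539 counts in TSSK2-IP and 939 and 381 in control IgG-IP, or 122 and 103 CPM, which lay between the 147 and 87.5 CPM of the control libraries. Its log2 fold change was -0.06 (SE 0.47, edgeR adjusted p 0.965), and its sign turned with the setting. Ptprf had 196 and 176 counts against 424 and 200, or 40.6 and 33.5 CPM against 66.2 and 46.0 CPM, so its groups did not overlap (log2 fold change -0.60, SE 0.40, edgeR adjusted p 0.513). Ptprd had 25.9 and 29.7 CPM against 22.2 and 34.2 CPM (log2 fold change -0.02, SE 0.41).

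The FLRT genes encode proteins that bind latrophilins and UNC5 receptors, and their values went different ways. Flrt1 (ENSMUSG00000047787, chr19:7092001-7105729, minus strand) had 55 and 70 counts in TSSK2-IP and 14 and 19 in control IgG-IP, or 11.4 and 13.3 CPM against 2.18 and 4.37 CPM. The lower TSSK2-IP library was 2.61-fold above the higher control library. The log2 fold change was 1.94 (SE 0.56, 95% interval 0.75 to 3.13), or 3.83-fold, with an edgeR adjusted p of 0.173. Flrt2 had 32 and 33 counts in TSSK2-IP against 46 and 48 (log2 fold change -0.49, SE 0.51), and Flrt3 had 6.22 and 5.90 CPM against 3.90 and 5.51 CPM (log2 fold change 0.37, SE 0.59). The difference between Flrt1 and the other FLRT genes was not tested. The most alike 60 coding bases of Flrt1 (chr19:7096075-7096134, minus strand) and Flrt3 (chr2:140660670-140660729, minus strand) are printed to show what separates these single-exon coding sequences, and 9 bases differ (capitals).
Flrt1: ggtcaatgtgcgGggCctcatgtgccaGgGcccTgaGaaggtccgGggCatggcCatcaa
Flrt3: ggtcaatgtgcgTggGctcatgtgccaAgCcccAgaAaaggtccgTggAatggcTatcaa

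Flrt1 lies inside Macrod1 and Flrt3 inside Macrod2, each on the opposite strand of its host. Macrod1 had 28 and 26 counts in TSSK2-IP and 103 and 43 in control IgG-IP (log2 fold change -1.28, SE 0.50, edgeR adjusted p 0.313), the opposite sign to Flrt1. Macrod2 had 382 and 443 counts against 173 and 137 (log2 fold change 1.48, SE 0.40, edgeR adjusted p 0.148), the same sign as Flrt3. No 100-base window of the exons of either FLRT gene occurs in annotated transcripts of another gene, a search that does not cover RNA from introns of the hosts.

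The IGSF9 pair encodes immunoglobulin-type proteins of dendrites, of which IGSF9B acts at inhibitory synapses. Igsf9b (ENSMUSG00000034275, chr9:27299204-27357546, plus strand) had the lowest edgeR p of the 26 tested, with 264 and 291 counts in TSSK2-IP and 82 and 105 in control IgG-IP. Its levels were 54.7 and 55.4 CPM (mean 55.1 ± 0.455, SD, n = 2) against 12.8 and 24.1 CPM (18.5 ± 8.01, SD, n = 2), and the lower TSSK2-IP library was 2.27-fold above the higher control library. The log2 fold change was 1.58 (SE 0.43, 95% interval 0.66 to 2.51), with an edgeR adjusted p of 0.147. Igsf9 had 321 and 322 counts against 191 and 269, or 66.5 and 61.3 CPM against 29.8 and 61.8 CPM. One of its control libraries lay with the TSSK2-IP libraries, and the log2 fold change was 0.48 (SE 0.44, edgeR adjusted p 0.628). The most alike 60 coding bases of the pair, Igsf9b at chr9:27324229-27324288 and Igsf9 at chr1:172494805-172494864, both on the plus strand, differ at 14 bases (capitals).
Igsf9b: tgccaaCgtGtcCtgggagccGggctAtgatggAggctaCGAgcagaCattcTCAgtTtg
Igsf9: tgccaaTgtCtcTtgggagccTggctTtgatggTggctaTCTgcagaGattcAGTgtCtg

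Cadm1, the adhesion molecule between spermatogenic and Sertoli cells, had the highest level of the 40 per kilobase of exon. Its 557 and 539 counts in TSSK2-IP and 614 and 348 in control IgG-IP gave 115 and 103 CPM against 95.8 and 80.0 CPM. The groups did not overlap, but the log2 fold change was 0.31 (SE 0.43, edgeR adjusted p 0.774). Sertoli cell markers, the partner cells, summed to 53.5 and 39.4 CPM in TSSK2-IP and 20.4 and 43.9 CPM in control IgG-IP, and their part in the Cadm1 values was not tested. In these precipitates, fewer cells of a type and less RNA per cell cannot be told apart. Cadm2 had 18 and 50 counts in TSSK2-IP and 57 and 47 in control IgG-IP, or 3.73 and 9.51 CPM against 8.89 and 10.8 CPM (log2 fold change -0.56, SE 0.55, edgeR adjusted p 0.657). Cadm3 had 4 and 13 counts against 13 and 20, or 0.829 and 2.47 CPM against 2.03 and 4.60 CPM (log2 fold change -0.96, SE 0.91, edgeR adjusted p 0.645). The TSSK2-IP libraries overlapped the control libraries for both genes and were apart from each other. With TSSK2-IP replicate 1 left out, Cadm2 was at -0.06 and Cadm3 at -0.39 on the log2 scale, and with replicate 2 left out they were at -1.40 and -1.94. Cadm4 had 5 to 17 counts a library and was not tested. Dscam and Dscaml1, which keep neurites of one neuron apart, lay near no difference, with log2 fold changes of 0.12 (SE 0.51) and -0.10 (SE 0.39).

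**Figure D3:**
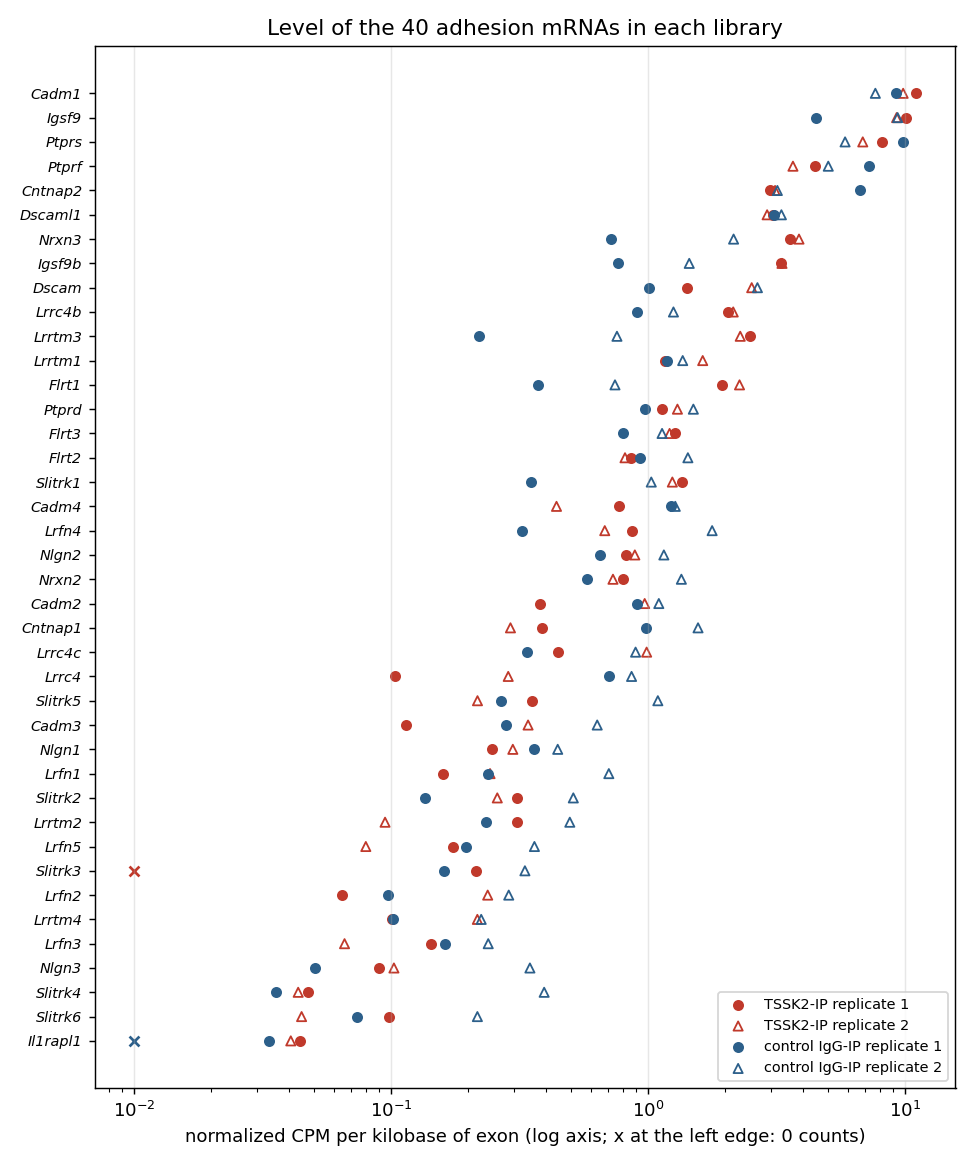
Normalised CPM per kilobase of annotated exon (log axis) of the 40 adhesion genes, in order of their mean over the 4 libraries, with TSSK2-IP in red, control IgG-IP in blue, filled circles for replicate 1, open triangles for replicate 2 and a cross at the left edge for a count of 0. Cadm1 is highest at a mean of 9.43 and Il1rapl1 lowest at 0.0296, and the libraries of Cadm1, Igsf9 and Ptprs overlap.

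Per kilobase of exon, the mean level over the 4 libraries ran from 0.0296 (Il1rapl1) to 9.43 (Cadm1) normalised CPM per kilobase. Cadm1 was followed by Igsf9 at 8.30, Ptprs at 7.64, Ptprf at 5.09 and Cntnap2 at 3.99. Dscaml1 at 3.08, Nrxn3 at 2.58 and Igsf9b at 2.20 came next. The libraries of Cadm1, Igsf9 and Ptprs overlapped on this scale, so their order does not exceed the spread. Lrrtm3 at 1.44 and Flrt1 at 1.33 lay in the middle of the order and Cntnap1 at 0.807 lower. The level is that of the precipitate and not of the cell, since no input library was used here.

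The members differ in gene structure, which the choice of genes did not use. In 12 of the 40 the coding sequence lies in 1 exon, and of these 7 were tested, with a median log2 fold change of 0.25, and with both TSSK2-IP libraries above the controls for 3 genes and below for 1. Another 9 have 2 or 3 coding exons, of which 3 were tested, with a median of 0.96, 2 above and 0 below. The remaining 19 have 6 or more coding exons and 16 were tested, with a median of -0.08, 3 above and 5 below. All tested genes of the second kind passed the filter through both TSSK2-IP libraries and 1 control library. So did Flrt1, Slitrk1, Slitrk2 and Lrrc4c of the first kind, but no gene of the third. The medians of the kinds therefore depend on the filter and are not compared. The genes with an unadjusted p under 0.05 came from each kind, with Flrt1 among the first, Lrrtm3 among the second, and Igsf9b, Nrxn3 and Cntnap1 among the third. Over all genes tested, 27.3% were above and 21.6% below, and these small counts describe the genes tested and carry no test.

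The control libraries were as far apart for these genes as for others, but mostly in one direction. Control replicate 2 was above control replicate 1 in 22 of the 26 adhesion genes tested, compared with 54.2% of all genes tested, and the median log2 difference was 0.70 against 0.15. The median ratio between replicates, larger over smaller, was 1.14 for the TSSK2-IP libraries and 1.83 for the control libraries, compared with 1.17 and 1.84 over all genes tested. At least a 2-fold ratio separated the TSSK2-IP libraries for 3 of the 26 genes and the control libraries for 11 (42.3%, against 43.6% of all genes tested). The SD of the log2 difference between the control libraries was 0.76 for the adhesion genes, below the 1.08 of all genes. Of the marker lists, control replicate 2 was the higher for 6 of 7 Sertoli, 5 of 5 Leydig, 3 of 3 myoid, 3 of 3 endothelial, 5 of 6 spermatogonial, 3 of 6 macrophage and blood, 6 of 7 neuronal and 4 of 5 round spermatid markers, and for 1 of 6 spermatocyte and 1 of 6 elongating spermatid markers. The sums of the neuronal and round spermatid lists were nevertheless higher in control replicate 1, through Map2 and Spata18. Their part in the adhesion gene values was not tested.

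**Figure D4:**
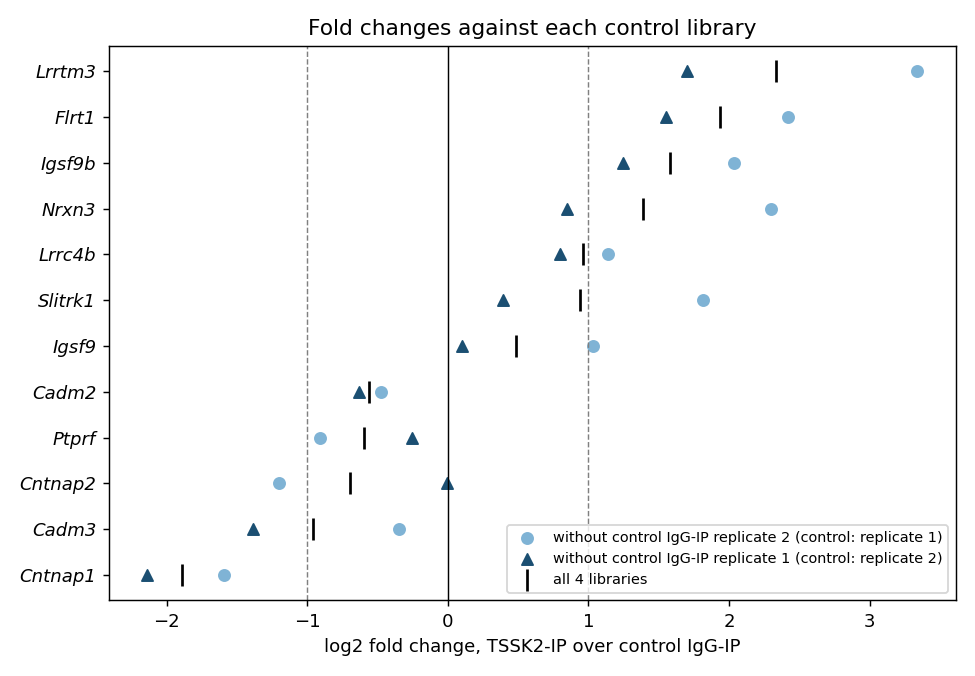
Log2 fold change of TSSK2-IP over control IgG-IP (x axis) of the 12 adhesion genes with the smallest p, fitted without control replicate 1 (triangles), without control replicate 2 (circles) and with all 4 libraries (bars), with dashed lines at -1 and 1. Igsf9b, Lrrtm3 and Flrt1 stay above 1 and Cntnap1 below -1 in each fit, whereas Nrxn3 goes from 0.85 to 2.30 and Slitrk1 from 0.39 to 1.81.

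How many adhesion genes were called depended on the control library used. Without control replicate 1, 3 of the 34 adhesion genes then tested passed both thresholds as higher (Igsf9b, Lrrtm3 and Flrt1) and 1 as lower (Cntnap1), where 5.38% of all genes tested were called higher and 2.56% lower. Without control replicate 2, 6 of 26 were higher (those 3 with Nrxn3, Igsf9 and Slitrk1) and 2 lower (Cntnap1 and Cntnap2), where 17.9% and 17.4% of all genes were called. The median log2 fold change of the adhesion genes was -0.37 without control replicate 1 and 0.33 without control replicate 2. The lone control library is assumed in these fits to vary like the TSSK2-IP libraries. With TSSK2-IP replicate 1 or replicate 2 left out, 0 were called. Igsf9b had a log2 fold change of 1.25 without control replicate 1 and of 2.03 without replicate 2. Lrrtm3 had 1.70 and 3.34, Flrt1 had 1.55 and 2.42, and Cntnap1 had -2.14 and -1.60. Those 4 kept their sign and a size over 1 whichever control library was used, whereas Nrxn3 was at 0.85 without control replicate 1. The 4 were picked by p in these same libraries, where their groups lay at least 2.27-fold apart, against 1.66-fold for Nrxn3. Leaving out a control library therefore adds no separate support.

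Genes that work with these adhesion proteins were counted in 3 lists. Of 36 other synaptic ligands and receptors, such as cerebellins, latrophilins, teneurins and UNC5 receptors, 26 were tested and 0 were called. At an unadjusted p under 0.05, 1 was higher and 0 were lower, and the median log2 fold change was -0.14. The latrophilin Adgrl1 had a log2 fold change of 0.77 (SE 0.49), and Mdga1, which blocks neuroligins (-1.25, SE 0.70), and the teneurin Tenm4 (-0.65, SE 0.40) had the smallest p among those with negative values. Without control replicate 1 Adgrl1 was at 0.25, and without control replicate 2 Mdga1 was at -0.43. Of 43 other immunoglobulin-type adhesion genes, 38 were tested and 0 were called, with 2 higher and 3 lower before adjustment (p under 0.05) and a median of -0.06. Jam3, needed for the polarity of spermatids, was at 47.9 and 49.7 CPM in TSSK2-IP against 15.6 and 25.7 CPM (log2 fold change 1.24, SE 0.41, edgeR adjusted p 0.257). Cntn6, a contactin, had a log2 fold change of 1.10 (SE 0.50) and Vsig1 of -1.24 (SE 0.50). Ncam1 lay at 15.8 and 15.2 CPM against 51.0 and 21.4 CPM (log2 fold change -1.23, SE 0.46, edgeR adjusted p 0.293). Without control replicate 1 these were 0.56 for Cntn6, -0.15 for Vsig1 and -0.41 for Ncam1. Of 34 scaffold proteins of synaptic adhesion, 32 were tested and 0 were called, with 3 higher and 0 lower before adjustment (p under 0.05) and a median of 0.14. DESeq2 called 1 gene of the 3 lists, Magi2.

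Magi2, a scaffold protein that binds neuroligins, lay nearest to the thresholds of the genes in these lists. It had 1503 and 1490 counts in TSSK2-IP and 334 and 259 in control IgG-IP, or 312 and 284 CPM against 52.1 and 59.5 CPM. The groups were well apart and the control libraries were alike for this gene. The log2 fold change was 2.41 (SE 0.52) with an edgeR adjusted p of 0.0552, just outside the threshold, and DESeq2 gave an adjusted p of 3.35e-04. Lin7c, a partner of CASK below neurexins, had 98.1 and 103 CPM against 42.9 and 35.2 CPM (log2 fold change 1.36, SE 0.42, edgeR adjusted p 0.211). Magi3 (-0.90, SE 0.43) and Apba1 (-0.96, SE 0.58), also scaffold proteins, had the smallest p among the genes with negative log2 fold changes in this list, and without control replicate 1 Magi3 was at -0.30 and Apba1 at 0.19.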

How the data were processed

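The authors sequenced RNA from 2 TSSK2-IP precipitates and 2 of control IgG, in directional libraries without removal of ribosomal RNA. Reads were trimmed with Trimmomatic 0.39, mapped to GRCm38 with STAR 2.7.10a and counted with featureCounts 2.0.3, per the labels. The values the authors deposited are whole-number read counts for each gene, not normalized. The strand setting of the counting is not given in the sources used here. Other libraries of the study were not analysed here.

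Symbols came from GENCODE vM21 (GRCm38), in which 21894 of the 21936 identifiers were found. All 40 adhesion genes, the 113 genes of the 3 lists and the 54 markers matched. Counts were fitted with edgeR 4.0.16 in R 4.3.3 (TMM, filterByExpr with a minimum count of 10, glmQLFit and glmQLFTest) on the 14722 genes kept, with Benjamini-Hochberg adjustment over all of them. The thresholds, a log2 fold change of 1 and an adjusted p of 0.05, are those of the study. A standard error is the absolute log2 fold change over the square root of F. With 2 against 2 libraries, an exact permutation test cannot go below a two-sided p of 0.333 and was not used.

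The members and the lists were chosen with earlier results of these data known. Values in full are given by rule for the 12 members with the smallest p, the 5 with the highest level per kilobase, Cadm1, Nlgn2 and Igsf9b, and all members are named. In the lists, the genes named are the 2 of smallest p in each direction, apart from 1 that is not reported here. Host genes of intronic members were added after the values were seen. The fit was repeated with DESeq2 1.42.0, with edgeR after removal of Lars2 and mitochondrial genes, with upper-quartile scaling or the size factors of DESeq2 in place of TMM, with no filter, with at least 10 counts in every library, with the replicate number as a block and without each library in turn. The procedure was tested on simulated data. Sequences were read from GRCm38, with windows of 60 bases compared between paralogues and of 100 bases searched in other genes' transcripts.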

Additional observations from a re-analysis of the deposited data

How the results depend on the processing

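Of the 26 adhesion genes tested, 9 changed sign under at least 1 alternative (Dscam, Lrfn4, Lrrc4c, Lrrtm1, Nlgn2, Nrxn2, Ptprd, Ptprs and Slitrk2). Lrfn4 was at 1.16, Slitrk2 at 0.98, Nrxn2 at 0.33 and Ptprd at 0.26 without control replicate 2, Lrrc4c at -0.42 and Lrrtm1 at -0.14 without TSSK2-IP replicate 2, and Dscam at -0.37 without control replicate 1. Nlgn2 was at 0.33 without control replicate 2 (range -0.37 to 0.33 on leaving out each library in turn), and Ptprs was at 0.016 with at least 10 counts in every library (range -0.46 to 0.41 on leaving out each library). The number of adhesion genes called higher was 2 without a filter (Lrrtm3 and Flrt1) and 1 with the replicate block (Lrrtm3, edgeR adjusted p 0.0372), and ranged from 0 to 6 on leaving out each library, while those called lower ranged from 0 to 2. In the 3 lists the called higher numbered 1 with DESeq2, with upper-quartile normalization and without a filter, and 0 to 13 on leaving out each library, with 0 to 11 lower. Over all genes, 20 were called higher with upper-quartile normalization, 283 without a filter, 29 with at least 10 counts in every library, 274 with the replicate block and 23 to 2755 on leaving out each library. Called lower were 24 without a filter, 3 with the block and 0 to 2688 on leaving out each library. The median log2 fold change of the adhesion genes was -0.35 with DESeq2, which was fitted without a filter, and -0.37 to 0.33 on leaving out each library, and that of the 3 lists -0.23 to 0.29. Adhesion genes above both control libraries numbered 9 to 16, and those below 7 to 21, on leaving out each library, where fewer libraries make overlap rarer, with 11 below without a filter and 3 below with at least 10 counts in every library. Same-numbered libraries deviated together with a correlation of 0.126 over 14722 genes, but with 2 pairs and nothing in the labels on a shared animal or day this does not show that the numbers pair the samples. The filter on 10 counts left out Cntnap1, Lrrtm3 and Cadm3, so they have no value under it. The highest counts of calls on leaving out a library came without control replicate 2 (2755 higher and 2688 lower over all genes), followed by those without control replicate 1 (894 and 426). DESeq2's size factors and the removal of Lars2 and mitochondrial genes changed no direction and no call of the adhesion genes, and the replicate block changed no call of an adhesion gene but that of Lrrtm3. The causes of these changes were not tested. Depth limits the 14 genes not tested, with at most 25 counts in any library.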
